A study of Mus musculus with 12 samples.

Results

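Adnp, its paralog Adnp2 and the 3 genes of heterochromatin protein 1 (HP1), Cbx1, Cbx3 and Cbx5, were followed through RNA-seq of the newborn mouse retina. They are 5 of the 38720 genes in each deposited table and were taken by their symbols. Adnp was chosen by its large fall in both cell fractions, so its change is given as a description, with no test. The other 4 were chosen because they belong to the same families, with earlier results of these data known.

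Retinas came from pups at postnatal day 0 (P0; strain label C57/BL6). The mKO pups carried Math5Cre, a Cre knocked into the Math5 locus, together with Ezh2 f/f, floxed alleles that lose the exons for the catalytic SET domain; the WT pups were wild type. Retinal ganglion cells (RGCs) were separated from the other retinal cells (non-RGCs) with beads against CD90 (Thy-1), which gave 4 groups of 3 libraries: mKO RGCs, WT RGCs, mKO non-RGCs and WT non-RGCs. The study, from earlier reports on this Cre line, describes Math5-Cre as acting in only part of the RGCs, so an mKO RGC library mixes recombined and unrecombined cells. The study also states that only a small share of the non-RGC cells comes from Math5 progenitors. It adds that incomplete deletion limits how large a fall can be detected in RGCs. By its methods the triplicates are separate RNA extractions. The sources used here do not say how many pups went into an extraction, so the p-values measure the spread between these libraries only.

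Ezh2 is the methyltransferase of polycomb repressive complex 2 and places the repressive mark H3K27me3. HP1 proteins belong to the other main silencing pathway: their chromodomain binds methylated lysine 9 of histone H3 (H3K9me), and their chromoshadow domain recruits partners. Cbx5 encodes HP1α, Cbx1 HP1β and Cbx3 HP1γ. ADNP is a zinc finger and homeodomain protein that binds DNA and, with the remodeller CHD4 and HP1, forms the ChAHP complex, which silences genes of other lineages in embryonic stem cells; it is also a neurodevelopmental disease gene. ADNP2 is its less studied paralog.

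The starts of the genes are shown first, because the comparison is between genes whose RNA differed between mKO and WT libraries (Adnp and Cbx3) and genes of the same families where no difference was called (Cbx1 and Cbx5), and because Ezh2 is known for acting at starts rich in CG dinucleotides. The RefSeq promoter table for GRCm38.p6 had entries for these 4 genes. Each sequence below reads 5′ to 3′ on the strand of its gene, in the 250 bases before the RefSeq start, without bases of annotated exons, and capitals mark CG dinucleotides, which read alike on both strands. The Adnp stretch is chr2:168207113-168207362 on the minus strand, that of Cbx1 is chr11:96788885-96789126 on the plus strand and that of Cbx5 is chr15:103239853-103240102 on the minus strand. For Cbx3 that start lies downstream of the start in the gene annotation, so that 152 of the 250 bases lie in annotated exons, and the longest other stretch, of 98 bases inside the annotated gene, is chr6:51470432-51470529 on the plus strand.
Adnp: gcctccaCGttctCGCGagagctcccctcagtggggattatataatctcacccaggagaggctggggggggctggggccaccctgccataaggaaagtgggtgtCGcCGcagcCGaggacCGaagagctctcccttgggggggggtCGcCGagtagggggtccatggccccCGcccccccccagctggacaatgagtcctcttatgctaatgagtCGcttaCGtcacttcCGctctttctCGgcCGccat
Cbx3: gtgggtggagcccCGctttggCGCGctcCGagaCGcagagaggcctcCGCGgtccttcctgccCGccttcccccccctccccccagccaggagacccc
Cbx1: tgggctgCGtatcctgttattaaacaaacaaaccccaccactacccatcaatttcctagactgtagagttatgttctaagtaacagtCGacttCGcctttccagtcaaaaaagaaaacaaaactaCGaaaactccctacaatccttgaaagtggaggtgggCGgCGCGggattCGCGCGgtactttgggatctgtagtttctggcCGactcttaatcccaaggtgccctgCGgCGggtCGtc
Cbx5: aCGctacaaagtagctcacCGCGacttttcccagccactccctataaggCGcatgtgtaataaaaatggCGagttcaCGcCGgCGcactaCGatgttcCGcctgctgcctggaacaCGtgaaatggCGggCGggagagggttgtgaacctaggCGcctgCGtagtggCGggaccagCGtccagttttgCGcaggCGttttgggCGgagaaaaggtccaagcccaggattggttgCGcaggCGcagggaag

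Over the whole 250 bases, the Adnp promoter held 15 CG dinucleotides and the Cbx1 promoter 16. The Cbx3 promoter shown held 29 and that of Cbx5 22. A second, downstream promoter in the table held 31 for Cbx3 and 7 for Cbx5. At least as many as in Adnp stood in 27.3% of the 32851 promoters of the table, and at least as many as in the Cbx3 promoter shown in 6.78%. Both genes with lower RNA and both genes without a called difference therefore started at CG-containing sequence, and the count did not order them by their change.

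What the Adnp row measures had to be settled before its values. In GENCODE M21 on GRCm38, Adnp (ENSMUSG00000051149) spans chr2:168180986-168207112 on the minus strand, with 5350 exon bases. A readthrough gene, Gm20716 (ENSMUSG00000093752, chr2:168180986-168230364), starts in the upstream gene Dpm1 and runs into Adnp, where it takes in the 3 exons that hold the coding sequence, among them the last exon of 4187 bases. Only 957 exon bases of Adnp belonged to no other gene, an exon of 539 bases at the start and one of 418 bases that begins 2.34 kb further downstream. Both are noncoding. Of the windows of 75 bases, the read length, in the longest Adnp mRNA (4858 in all), 4322 occurred in a transcript of Gm20716.

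Gm20716 was listed at 0 reads in all 12 libraries, where a count of 0 allows up to 3 reads per library, although it shares its exons with genes that had reads in every library. Among the 617 listed genes with no exon base of their own, 456 (73.9%) were at 0 in all 12 libraries, against 14.4% of the 19826 protein-coding genes with at least 500 such bases. Reads over shared exons therefore did not appear in the row of Gm20716, and the default of featureCounts gives a read that overlaps more than 1 gene to none; the setting used is not given in the sources used here. Read this way, the Adnp row counts the 5′ noncoding exons and says nothing directly about the coding exons. The annotation used for the tables was Ensembl release 75, which was not used here, so the exon borders may differ from those given. Such bases are called own bases from here on.

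**Figure D1:**
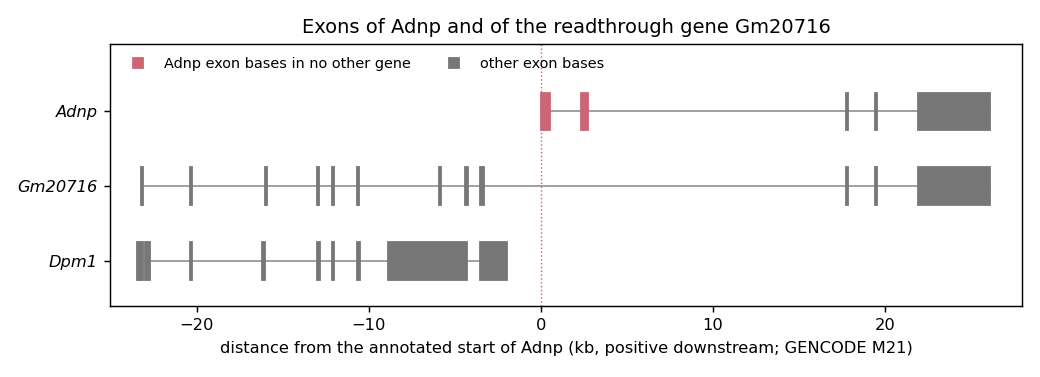
Annotated exons of Dpm1, the readthrough gene Gm20716 and Adnp by distance in kb from the start of Adnp (x axis, positive downstream); boxes are exons and lines introns. The 2 exons in red, with 957 bases near the start, are the only Adnp exon bases in no other gene, and all exons further downstream are shared with Gm20716.

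In WT RGCs, Adnp had 642.6, 719.8 and 701.4 normalized reads in libraries A, B and C (reads divided by the size factor of the library; letters run from the deepest to the shallowest library of a group). In mKO RGCs it had 199.8, 173.3 and 207.0. The groups did not overlap, and the highest mKO value was under the lowest WT value with no library between. In WT non-RGCs Adnp had 683.0, 685.1 and 723.6 normalized reads, and in mKO non-RGCs 174.2, 135.2 and 84.7. The groups again did not overlap, and the mKO non-RGC libraries spread more widely than the others. The mean was 688 ± 40.3 in WT and 193 ± 17.7 in mKO RGCs, and 697 ± 22.9 in WT and 131 ± 44.8 in mKO non-RGCs (SD, n = 3 each).

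On the log2(normalized reads + 1) scale, on which all differences below are given as mKO minus WT, Adnp differed by -1.83 (SE 0.0991) in RGCs and by -2.46 (SE 0.244) in non-RGCs, a WT level 3.55 and 5.50 times that of mKO. These are the values that chose the gene. Of the genes tested in each table, it was number 17 from the lowest of 16085 in RGCs and number 21 of 15326 in non-RGCs. It was thus among the lowest genes both in the RGC fraction and in the cells left after the separation. The part of the Ezh2 deletion in these differences was not tested. Whether Adnp differed between the fractions was not tested either, because the tables were normalized separately.

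Adnp2 (ENSMUSG00000053950, chr18:80126311-80151482, minus strand) did not pass the test in either fraction. In RGCs it had 1004, 934 and 844 normalized reads in the WT libraries and 1133, 1000 and 1020 in the mKO libraries. The groups overlapped, and the difference was 0.18 (SE 0.0845, 95% interval -0.017 to 0.38, limma adjusted p = 0.132). In non-RGCs the WT values were 1114, 1117 and 1181 and the mKO values 1230, 1093 and 908, with a difference of -0.089 (95% interval -0.40 to 0.22, limma adjusted p = 0.695). A change of Adnp2 as large as that of Adnp lay outside both intervals.

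Among the HP1 genes, Cbx3 (HP1γ, known also from the bodies of active genes; ENSMUSG00000029836, chr6:51470360-51483704, plus strand) fell in both fractions. In RGCs it had 387.2, 362.6 and 421.3 normalized reads in the WT libraries and 279.2, 261.9 and 287.0 in the mKO libraries. In non-RGCs the WT values were 471.9, 469.3 and 496.3, and the mKO values 263.5, 283.9 and 346.0. In each fraction all mKO values were under all WT values. The difference was -0.50 (SE 0.0927, 95% interval -0.72 to -0.28, limma adjusted p = 0.00629) in RGCs and -0.69 (SE 0.159, 95% interval -1.05 to -0.34, limma adjusted p = 0.0274) in non-RGCs, or 0.709 and 0.618 times the WT level.

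These counts stand against a wide background. In RGCs 37.5% of the 16085 genes tested were called at an adjusted p under 0.05, 16.3% higher and 21.2% lower in mKO, and 28.2% had all mKO values under all WT values. In non-RGCs 10.6% of 15326 genes were called, 4.18% higher and 6.43% lower, and 19.2% had all mKO values under all WT values. In each fraction 1 of the 4 tested members was called, a number too small to set the family apart from these shares. In non-RGCs the Cbx3 call rested on single libraries: without mKO A, mKO B, WT A or WT B in turn the limma adjusted p was 0.0603, 0.134, 0.0686 and 0.0943, with differences of -0.61, -0.66, -0.70 and -0.71, and scaling to library totals gave -0.52 with an adjusted p of 0.0560. In RGCs the call held without any single library, with adjusted p-values from 0.00289 to 0.0326.

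Cbx3 also shares sequence with processed pseudogenes. Of the 75-base windows of its longest mRNA (1889 bases), 73.7% occurred in no transcript of another gene, while Adnp2, Cbx1 and Cbx5 shared none. The shared windows lay in 8 annotated pseudogenes and 2 other genes, none of the pseudogenes being listed in the tables under its symbol. Its count is therefore uncertain in level, because reads from the shared stretches could have been left out or placed elsewhere.

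Cbx1 (HP1β, a component of pericentric heterochromatin; ENSMUSG00000018666, chr11:96789127-96808640, plus strand) did not pass the test. In RGCs it had 1312, 1311 and 1689 normalized reads in the WT libraries and 1291, 1379 and 1398 in the mKO libraries. One WT library, C, stood above the other 5, and the difference was -0.074 (95% interval -0.32 to 0.18, limma adjusted p = 0.611). The same library had the highest summed level of 10 markers of retinal progenitors among the RGC libraries, 2041 RPM (reads scaled to the same total of reads on genes in every library) against 1234 and 1283 in the other WT and 1244 to 1356 in the mKO RGC libraries, and its part in the Cbx1 value was not tested. Without it the difference was 0.048 (adjusted p = 0.438). In non-RGCs Cbx1 had 1728, 1743 and 1698 in WT and 1473, 1664 and 2062 in mKO libraries, so that the mKO libraries lay on both sides of the WT ones, with a difference of -0.0054 (95% interval -0.31 to 0.30, limma adjusted p = 0.983).

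Cbx5 (HP1α, which gathers at chromocentres; ENSMUSG00000009575, chr15:103191544-103239816, minus strand) had the most reads of the 3. In RGCs the WT libraries had 4528, 4910 and 4589 normalized reads and the mKO libraries 4497, 4934 and 5041. The groups overlapped, with a difference of 0.044 (SE 0.0649, 95% interval -0.11 to 0.20, limma adjusted p = 0.620). In non-RGCs the WT libraries had 3771, 3472 and 5447 and the mKO libraries 3857, 3826 and 3358, and WT library C stood above the other 5. The difference there was -0.18 (95% interval -0.54 to 0.19, limma adjusted p = 0.499).

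**Figure D2:**
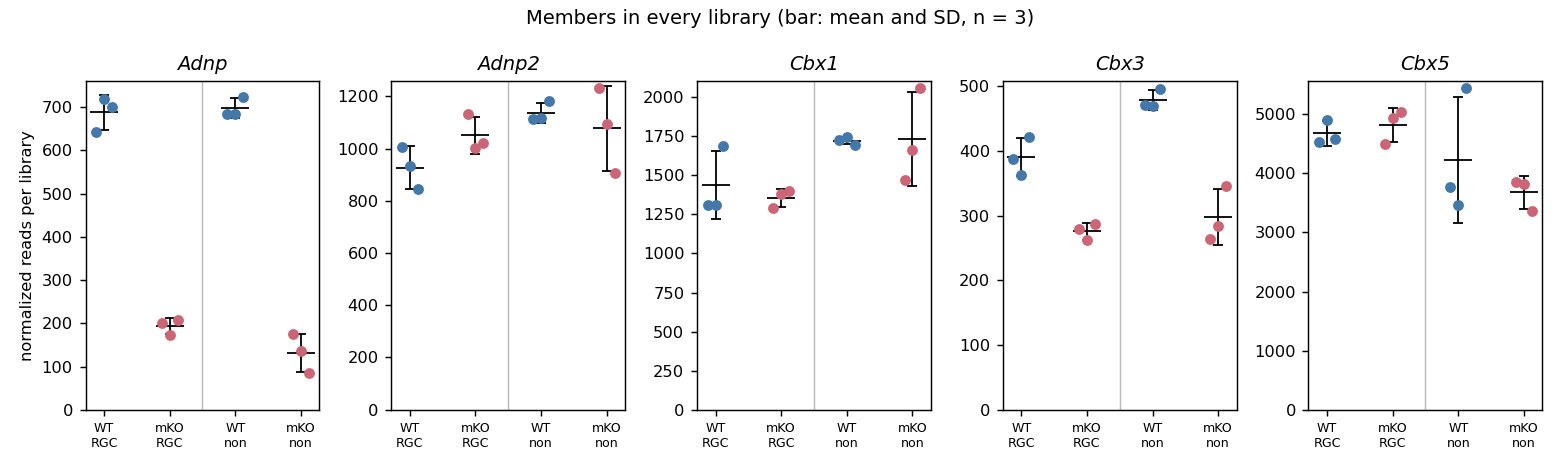
Normalized reads of the 5 genes in every library (y axis, from 0, 1 scale per gene) for WT (blue) and mKO (red) RGCs and non-RGCs; points are libraries A, B and C from left to right, and bars the mean and SD of 3. Adnp and Cbx3 are the genes whose mKO points all lie below the WT points of the same fraction, while Adnp2, Cbx1 and Cbx5 overlap.

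Levels were set beside each other per length, as RPM per kb of own bases. In WT RGCs Adnp came first with 57.5 ± 3.22, followed by Cbx5 with 41.5 ± 1.43, Cbx1 with 26.9 ± 4.36, Adnp2 with 14.8 ± 1.22 and Cbx3 with 5.21 ± 0.454 (mean ± SD, n = 3), and no neighbours in this order overlapped. In mKO RGCs Cbx5 (46.6 ± 2.28) and Cbx1 (27.6 ± 0.872) led, Adnp2 (18.3 ± 1.42) and Adnp (17.6 ± 1.54) overlapped, and Cbx3 was last with 4.01 ± 0.168. In non-RGCs Adnp again led in WT, with 65.0 ± 0.312. There Cbx5 and Cbx1 overlapped, at 41.8 ± 9.24 and 36.0 ± 1.47. In mKO non-RGCs Cbx5 (41.1 ± 3.58) and Cbx1 (40.7 ± 6.58) overlapped too, as did Adnp2 (21.6 ± 3.45) and Adnp (13.8 ± 4.83). The place of Adnp rests on the short stretch of 957 bases, and the low place of Cbx3 on a union of 5992 annotated exon bases, 1889 of which make up its longest mRNA.

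Between the fractions, the RPM levels are a description only. In WT libraries Adnp, Adnp2, Cbx1 and Cbx3 were lower in RGCs than in non-RGCs in every library, with log2 ratios of -0.18, -0.46, -0.43 and -0.46. Cbx5 overlapped, with a log2 ratio of 0.012. In mKO libraries Cbx1 and Cbx3 were again lower in RGCs (-0.55 and -0.31), Adnp and Adnp2 overlapped (0.41 and -0.23), and Cbx5 was higher in RGCs in every library (0.18). In bulk RNA, fewer cells of a type and less RNA per cell cannot be told apart.

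The separation and the genotype were looked at through marker genes. The 12 RGC markers summed to 2619 to 2766 RPM in WT and 2059 to 2130 in mKO RGC libraries, and to 513 to 539 in WT and 608 to 814 in mKO non-RGC libraries, so the RGC fraction held more RGC RNA. The sums of the 2 fractions lay closer together in mKO than in WT. In RGCs 10 of the 12 RGC markers were called lower in mKO, where 21.2% of all genes were. With the GC trend described below removed, 9 of them were called lower. With trends in GC content and reads per base over all exon bases removed, most of these calls were lost. Only Pou4f1 (-0.23, limma adjusted p = 0.0356) and Stmn2 (-0.46, adjusted p = 0.00468) were still called lower there. Thy1 was not (-0.23, adjusted p = 0.0696). In non-RGCs some of the 12 had enough reads to test only through the mKO libraries, so no count is given there. Ezh2 itself did not pass the test, with differences of 0.087 in RGCs (limma adjusted p = 0.637) and 0.13 in non-RGCs (limma adjusted p = 0.584). Its count covers the whole gene and not the floxed exons alone. The study reports strongly reduced Ezh2 in P0 mKO RGCs by qPCR and Western blot. It also reports a change of Ezh2 in its own RNA-seq comparison and treats it as a fall. No such fall appeared in the values here, with means of 1424 normalized reads in mKO and 1358 in WT RGCs. Blood markers were called higher in mKO for 5 of 5 genes in both fractions (24.3 to 30.2 against 9.34 to 11.0 RPM in RGCs, and 56.9 to 85.9 against 11.7 to 19.2 in non-RGCs). Over all genes, 16.3% in RGCs and 4.18% in non-RGCs were called higher. The 5 pigment epithelium markers summed to 26.6 to 41.6 RPM in mKO and 10.6 to 17.9 in WT RGC libraries, and to 112.1 to 123.7 against 22.4 to 40.4 in non-RGCs; some of them had enough reads to test only through the mKO libraries, so no count of them is given. Photoreceptor markers were called lower for 5 of 10 in each fraction, amacrine and horizontal cell markers for 4 and 3 of 8, and progenitor markers for 5 and 1 of 10, where 21.2% and 6.43% of all genes were called lower. With the GC trend described below removed, 2 and 1 photoreceptor, 3 and 0 amacrine and horizontal and 1 and 0 progenitor markers were called lower, while all 5 blood markers were still called higher in both fractions. No list was at 0 as a whole in any group; Rpe65, a defining gene of pigment epithelium, had 0 reads in all 6 WT libraries. The part of these differences in the values of Adnp and Cbx3 was not tested.

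The counted stretch of Adnp was rich in G and C. Its own bases had a GC content of 63.6%, against 47.8% for all its exon bases. Across the libraries, the difference between mKO and WT ran with GC content: over 12252 genes in RGCs and 11704 in non-RGCs (mean of at least 50 normalized reads), Spearman's rho between the GC content of the own bases and the log2 difference was -0.72 and -0.50. Genes share libraries and are not independent replicates, so no p-value is given. When genes were cut into 5 bins of equal size by GC content, the bin from 55.2% upwards had a median difference of -0.45 in RGCs, with 1496 genes called lower and 6 higher of 2451, and -0.35 in non-RGCs, with 538 lower and 14 higher of 2341. In the bin with the lowest GC content the medians were 0.35 and 0.17.

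Adnp lay below the genes of like GC content. Within 2 percentage points of its own-base GC content there were 189 other genes in RGCs, with a median difference of -0.67, and 180 in non-RGCs, with a median of -0.52. None of them was as low as Adnp in either fraction. Adnp was chosen for its low values, so this is a description and no test. With each library's trend over own-base GC content removed, an alternative chosen after seeing the data, Adnp differed by -1.14 (SE 0.108) in RGCs and by -1.88 (SE 0.283) in non-RGCs. With the trend over all exon bases removed, which takes the GC content of bases that were not counted, the values were -1.85 and -2.44. So the size of the fall depended in both fractions on which bases were taken as counted, and its direction did not.

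**Figure D3:**
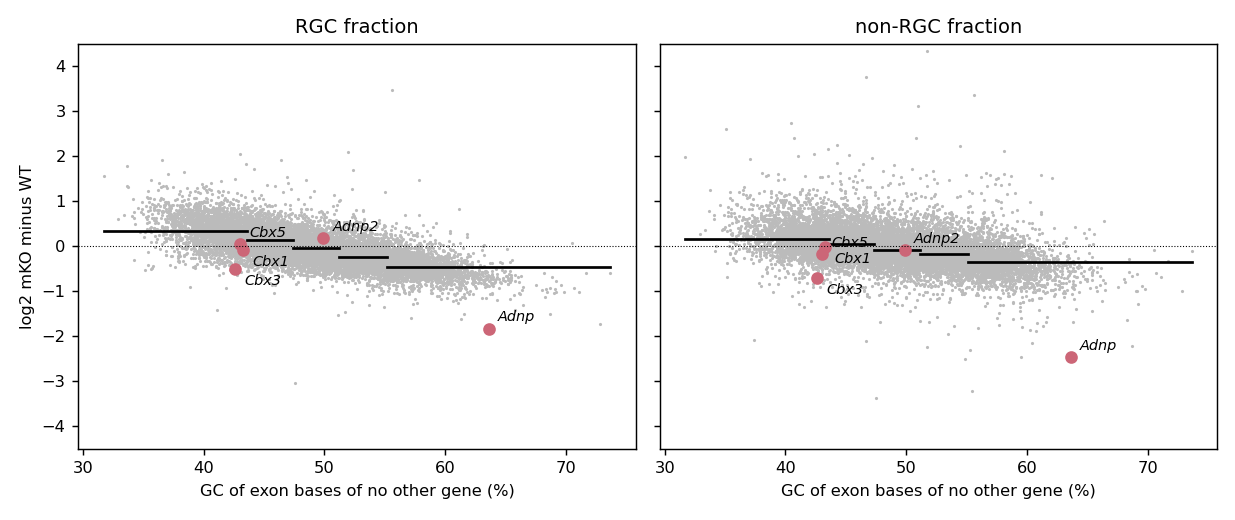
Log2 difference of mKO minus WT (y axis) against the GC content of each gene's own exon bases in percent (x axis) in both fractions; grey points are genes with a mean of at least 50 normalized reads, black bars the median of each of 5 bins of GC content, and red points the 5 genes. The grey cloud slopes down towards high GC content, Adnp lies below it at 63.6% in both fractions, and Cbx3 lies below the bar of its bin.

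The HP1 genes stood at the other end of the GC range. Own-base GC content was 43.3% for Cbx1, 42.6% for Cbx3 and 43.0% for Cbx5, in the bin whose median difference was positive, and 49.9% for Adnp2. With the own-base GC trend removed, Cbx3 was lower by more than before: it fell by 0.75 in RGCs (limma adjusted p = 0.00387) and by 0.83 in non-RGCs (adjusted p = 0.0441), where 15% and 1.94% of all genes tested were still called. With the trend over reads per own base removed as well, the falls were 0.90 and 0.94. The GC content of Cbx3 was taken over 5992 annotated exon bases, while its longest mRNA has 1889. Which of these bases held the reads was not tested, and the sizes of these falls rest on it. Cbx1 was at -0.30 (adjusted p = 0.0977) and Cbx5 at -0.19 (adjusted p = 0.102) in RGCs with the GC trend alone removed, and neither passed the test. For Cbx5 this turned the direction, and removing the trend over reads per own base too brought it back to 0.17 (adjusted p = 0.134).

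**Figure D4:**
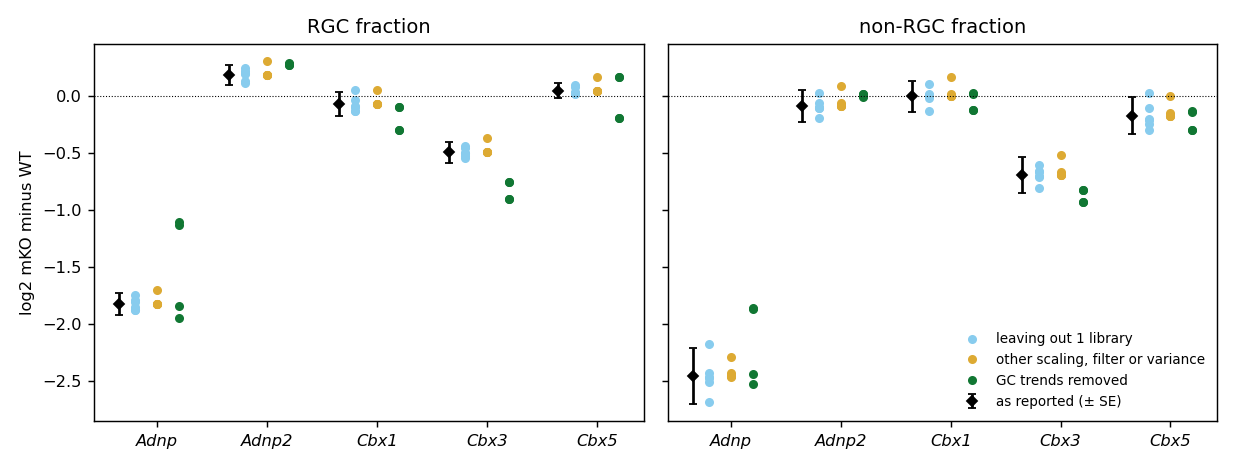
Log2 difference of mKO minus WT (y axis) for the 5 genes in RGCs and non-RGCs as reported (black, ± SE), with 1 library left out at a time (blue), with another scaling, pseudocount, filter or variance model (yellow), and with trends in GC content removed (green). Adnp stays below -1.1 and Cbx3 below -0.37 under every setting shown, while Adnp2, Cbx1 and Cbx5 stay between -0.31 and 0.31.

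Other genes also had own bases mainly in their 5′ part. In RGCs 47 genes, Adnp among them, had own bases under 50% of their exons with a mean position towards the start (under 0.25 of the exon bases); their median difference was -0.24, with 12 called lower and 4 higher. The 10616 genes whose own bases made up at least 90% of their exons had a median of -0.054, with 2710 called lower and 1771 higher, and 21.2% of all genes were called lower. In 23 genes whose own bases lay towards the end (over 0.75) it was -0.15, with 4 lower and 2 higher. In non-RGCs the medians were -0.14 over 45 and -0.10 over 23 genes. With the own-base GC trend removed, the medians of the genes with 5′ own bases were 0.045 in RGCs and 0.13 in non-RGCs. No other gene with own bases towards the start or the end was as low as Adnp in either fraction. Because Adnp was chosen for its fall, that is a description only. These sets were chosen after the data were seen.

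The neighbours of Adnp on chromosome 2 were followed as well. Within 250 kb of its start 15 genes were listed, of which 5 in RGCs and 4 in non-RGCs, Adnp included, had enough reads to test. Dpm1, which encodes the catalytic subunit of dolichol-phosphate mannose synthase and starts 23.5 kb upstream, had 124.8 to 133.8 normalized reads in WT and 178.0 to 269.1 in mKO RGC libraries, without overlap. It rose by 0.68 (limma adjusted p = 0.0218) in RGCs and differed by 0.30 (adjusted p = 0.462) in non-RGCs, and the call in RGCs was lost with the own-base GC trend removed (0.51, adjusted p = 0.102). Mocs3, a sulfurtransferase gene of molybdenum cofactor synthesis that starts beside Dpm1 on the other strand, fell in RGCs (-0.63, adjusted p = 0.00495), a call that was lost with that trend removed (-0.0027, adjusted p = 0.988). Pard6b, a cell polarity gene, fell in non-RGCs (-0.47, adjusted p = 0.0397), again not with the trend removed (adjusted p = 0.214), and Kcng1, a potassium channel subunit, was at -0.22 in RGCs (adjusted p = 0.431).

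Partners of ADNP and HP1 and enzymes of the H3K9 mark were read from a list of 33 genes. In RGCs 32 were tested, 7 called higher and 11 lower (56.2%, with 37.5% over all genes), and the median difference was -0.022 where that of all genes was -0.0024. In non-RGCs 31 were tested, 1 called higher and 10 lower (35.5%, with 10.6% over all genes), with a median of -0.29 against -0.026. With the own-base GC trend removed, 4 of 32 (12.5%, with 15% over all genes) and 3 of 31 (9.7%, with 1.94%) were called. In RGCs these were Arid1a, Kdm1a and Trim28, lower, and Mphosph8, higher; in non-RGCs they were Arid1a, Atf7ip and Jmjd1c, lower.

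Chd4, the remodeller of the ChAHP complex, had 6210 to 6813 normalized reads in WT and 4870 to 5357 in mKO RGC libraries, without overlap. It fell by 0.35 in RGCs (limma adjusted p = 0.00540) and by 0.53 in non-RGCs (adjusted p = 0.0276), and was not called with the own-base GC trend removed (adjusted p = 0.373 and 0.108). The 3 SWI/SNF subunits reported to bind ADNP, Smarca4, Smarcc2 and Arid1a, were all called lower in both fractions, with medians of -0.48 and -0.48. Over all genes, 21.2% in RGCs and 6.43% in non-RGCs were called lower. Arid1a, a DNA-binding subunit, had 6282 to 6491 normalized reads in WT and 4276 to 4652 in mKO RGC libraries, and 6669 to 7571 against 3563 to 4444 in non-RGCs. It fell by 0.52 and 0.80 and was the only one of the 3 still called without the own-base GC trend, in RGCs (-0.27, adjusted p = 0.0324) and non-RGCs (-0.63, adjusted p = 0.0428); with trends in GC content and reads per base over all exon bases removed it was not, at -0.13 (adjusted p = 0.210) and -0.53 (adjusted p = 0.103).

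Of the 11 methyltransferases of H3K9 and their cofactors, 2 were called higher and 3 lower in RGCs, and 0 higher and 3 lower in non-RGCs (45.5% and 27.3%, with 37.5% and 10.6% over all genes). Ehmt2, which encodes G9a, fell by 0.70 in RGCs (adjusted p = 0.000651) and by 0.59 in non-RGCs (adjusted p = 0.0258). Wiz, a zinc finger partner of G9a, fell too (-0.55 in RGCs and -0.76 in non-RGCs), and Trim28, the corepressor KAP1, fell by 0.68 in RGCs. Own-base GC content was 60.3% for Ehmt2, 58.9% for Wiz and 57.1% for Trim28, and Trim28 alone of these was called with its trend removed, in RGCs (-0.27, adjusted p = 0.0332), but not with GC and reads per base trends over all exon bases removed (-0.071, adjusted p = 0.548). Suv39h1 and Setdb1 did not pass the test in either fraction, with differences of -0.033 and -0.019 in RGCs. Suv39h2 and Zfp644 were the genes called higher in RGCs (0.39 and 0.43), and neither was with the own-base GC trend removed (adjusted p = 0.240 and 0.115).

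Among the heterochromatin readers and partners, 8 of the 9 symbols were listed; 3 were called higher and 1 lower in RGCs, and 1 higher and 0 lower in non-RGCs (50% and 12.5%, with 37.5% and 10.6% over all genes). Mphosph8, a chromodomain reader of H3K9me in the HUSH complex, had 686 to 729 normalized reads in WT and 1013 to 1122 in mKO RGC libraries, and 641 to 870 against 1248 to 1902 in non-RGCs. Its libraries did not overlap in either fraction, and it rose by 0.59 (limma adjusted p = 0.000924) and 0.91 (adjusted p = 0.0207). The rise in RGCs was still called with the own-base GC trend removed (0.27, adjusted p = 0.0290), and that in non-RGCs was not (0.75, adjusted p = 0.0860); with GC and reads per base trends over all exon bases removed both were called (0.41, adjusted p = 0.0167, and 0.86, adjusted p = 0.0431). Pogz, a zinc finger gene whose product binds HP1, and Lbr, the lamin B receptor, did not pass the test in either fraction. Of 9 genes for H3K9 demethylases, 2 were called higher and 3 lower in RGCs, and 0 higher and 3 lower of 8 tested in non-RGCs (55.6% and 37.5%, with 37.5% and 10.6% over all genes). Kdm1a was lower in RGCs before and after removal of the own-base GC trend (-0.33, adjusted p = 0.00389, and -0.37, adjusted p = 0.00783), but not with GC and reads per base trends over all exon bases removed (-0.10, adjusted p = 0.256).

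Among the polycomb Cbx genes, which bind H3K27me3 and not H3K9me, Cbx6 was called lower in RGCs (-0.30, adjusted p = 0.0110) and not in non-RGCs (-0.12, adjusted p = 0.569); with the own-base GC trend removed it was at -0.0021 in RGCs. Genes of endoderm, known to be held silent through ADNP in stem cells, were close to absent. The 6 together summed to 1.21 to 3.23 RPM in mKO and 1.38 to 4.71 in WT RGC libraries. In non-RGC libraries they summed to 3.64 to 5.38 in mKO and 1.71 to 3.67 in WT. Foxa1, which encodes a pioneer factor, had 20.8 to 28.2 normalized reads in mKO and 4.17 to 9.02 in WT non-RGC libraries, without overlap. It reached the mean of 10 needed for the test through the mKO libraries alone, so these values are given with no test. Sox17 and Gata6 reached that mean in RGCs through the WT libraries alone. They went the other way there, by -1.70 and -0.77, and their libraries overlapped. Gata6 differed by -0.11 in non-RGCs, again with overlap. The other genes of the 6 had too few reads to test in either fraction.

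**Figure D5:**
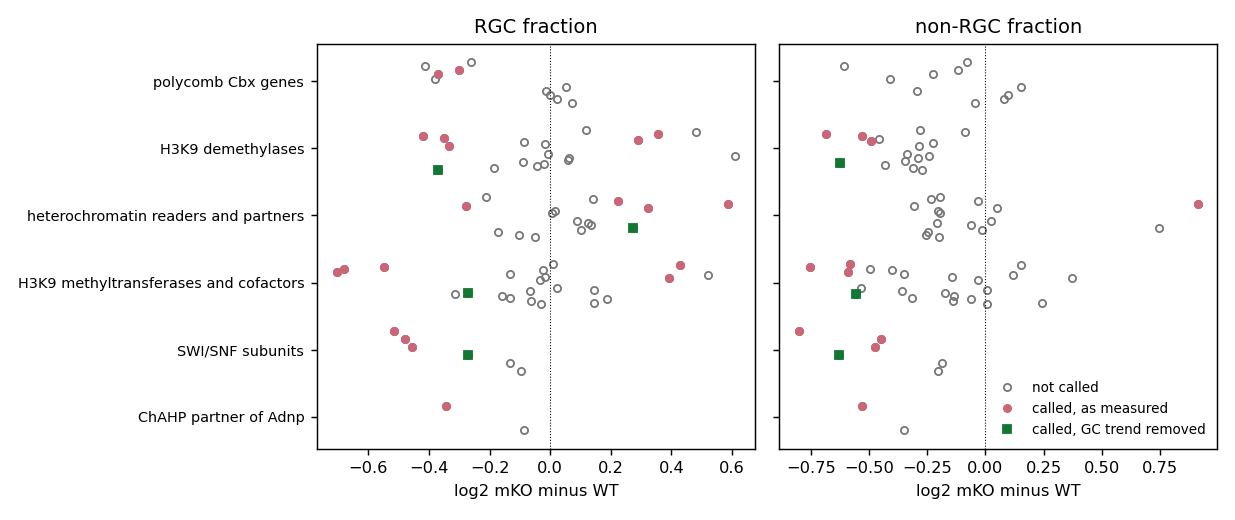
Log2 difference of mKO minus WT (x axis) for the tested genes of each list (y axis) in both fractions; in each list the upper band gives the values as measured, with called genes in red, and the lower band the values with the own-base GC trend removed, with called genes as green squares. The red points lie mostly left of 0, and no list holds more than 1 green square in a fraction.

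By a rule of size, genes as low as Adnp or lower in both tables included Pck1, Kap, Umod and Cdh16. These 4 are known from kidney, and none had many reads. Umod, which encodes uromodulin, had a mean of 35.4 normalized reads in WT and 0.615 in mKO RGCs, and 30.4 and 0.257 in non-RGCs. Pck1, an enzyme of gluconeogenesis, had 29.0 and 2.47 in RGCs, and 29.7 and 0.639 in non-RGCs. None of the 4 reached a mean of 50 normalized reads in mKO libraries, as Adnp did in both fractions.

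The genes whose pattern over the 12 libraries was most like that of Adnp were taken from 11748 genes whose mean reached 50 normalized reads in every group, by the root mean square difference of the log2 values, each set against the mean of the WT libraries of its table. They were Glcci1 (0.258), Prob1 (0.430), Klf2 (0.590), Inhbb (0.618) and Lactbl1 (0.640). Glcci1 differed by -1.47 in RGCs and -2.24 in non-RGCs and had 2308 own bases of 7756 exon bases. The other 4 had an own-base GC content from 59.5% to 61.6%, near that of Adnp, and differences from -0.92 to -1.50 in RGCs. The likeness was measured on the values that chose Adnp and is a description.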

How the data were processed

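Poly-A RNA of 12 libraries (4 groups of 3, grouped by their titles) was sequenced from a single end for 75 cycles. As the study's methods and the submitters' processing notes state, the authors aligned reads to mm10 with STAR (2.3.1z4), assigned them to genes with featureCounts and scaled them with DESeq; file labels state that primary alignments were kept and duplicates removed. The deposited signal is the mean over 3 libraries of gene counts divided by size factors. The deposited ratio (WT over mKO), its log2 value and the deposited p-value come from the authors' own comparison and were not used.

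The reads of each library were recovered from the digits of the means: exactly 1 combination of whole reads in the range searched fitted each mean for 100.0% of genes with reads in every group, and with shifted steps as a control 0 of 1000 genes per group had one. For genes with high means the search first covered only libraries within a limited range around the group mean. Combinations outside that range were not checked where it gave a fit. The control used genes with means below those of all members. The step of each library was taken from the authors' means, and recovered libraries carry no replicate number; they were lettered A to C by depth, from 7139633 to 13014004 reads on genes. No column of per-sample values was left unused (0). The test was limma (3.58.1, R 4.3.3) with a mean-variance trend, run on log2(normalized reads + 1) of the recovered libraries. It covered every gene whose mean reached 10 in WT or mKO, separately per table. Benjamini-Hochberg adjustment ran over all of these genes, with a threshold of 0.05. The deposited tables hold group means, and no count test was run on the recovered reads. Low counts make a difference on this scale too small. On simulated RGC libraries limma recovered 200 of 200 changed genes among 15813 with 9 false calls. A simulated GC trend gave 6653 false calls (15828 genes) before and 18 after its removal. The simulation changed only genes with a mean of at least 50 and gave every gene the same dispersion. Its trend ran over all exon bases and was alike in all mKO libraries. It therefore does not show how the test or the own-base removal performs on genes and libraries that vary more. With 3 libraries against 3 an exact permutation test cannot go below p = 0.1, so none was run. Trends were removed per library by lowess (span 0.3) fitted to genes whose mean reached 50. Positions, exons and GC content came from GENCODE M21 on GRCm38, promoters from RefSeq (Python 3.11.15, pandas 2.3.3, scipy 1.17.1).

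The members, lists and markers were chosen with earlier results of these data known, and limma and the lists are not independent support for what those showed. Named genes were the members, Ezh2, the genes of the lists, genes within 250 kb of the start of Adnp, genes as low as Adnp in both tables, and the 5 most alike in pattern. The alternatives tried were another pseudocount, no filter, library totals, centring on the median gene, no mean-variance trend, removal of GC and read density trends and leaving out each library; own-base trends were added after the data were seen. Some genes are not reported here.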

Additional observations from a re-analysis of the deposited data

How the results depend on the processing

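No paired analysis was possible because the recovered libraries carry no replicate numbers, so no replicate block could be fitted. Adnp was lower in mKO under all 15 alternatives in each fraction. In RGCs it moved by more than the spread between libraries to -1.71 with library totals, -1.95 with GC and reads per base trends removed, -1.14 with the own-base GC trend removed and -1.10 with the trend over reads per own base removed too. In non-RGCs it moved to -1.88 and -1.86 with the own-base trends removed. Leaving out 1 library gave -1.88 to -1.75 in RGCs and -2.69 to -2.18 in non-RGCs.

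Cbx3 kept its call in RGCs under all 15 alternatives (-0.91 to -0.37; -0.55 to -0.44 without 1 library). In non-RGCs it kept its direction and lost its call with library totals (-0.52) and without mKO A, mKO B, WT A or WT B, the range without 1 library being -0.81 to -0.61; the cause was not tested. Library totals raised the median of all genes to 0.12 in RGCs and 0.15 in non-RGCs, from -0.0024 and -0.026; with them Adnp2 (0.30) and Cbx5 (0.17) were called higher in RGCs, and less that shift they stood at about the values reported.

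Values of genes that were not called changed sign as follows, and none was called there. With library totals Cbx1 was at 0.049 in RGCs and 0.17 in non-RGCs, and Adnp2 at 0.082 in non-RGCs. Cbx5 in RGCs was at -0.20 with the GC trend and -0.19 with the own-base GC trend removed. With GC and reads per base trends removed, over all and over own bases, Adnp2 in non-RGCs was at 0.019 and 0.016, and Cbx1 in non-RGCs at 0.026 and 0.018; centring on the median gene gave Cbx1 there 0.020. Without 1 library Cbx1 ran from -0.13 to 0.048 in RGCs and from -0.14 to 0.10 in non-RGCs, Adnp2 in non-RGCs from -0.19 to 0.028, and Cbx5 in non-RGCs from -0.30 to 0.021.

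The number of genes called moved most. In RGCs 6027 became 2504 with the GC trend, 1188 with GC and reads per base trends, 2414 with the own-base GC trend and 1137 with both own-base trends removed, and 3770 to 8184 without 1 library. In non-RGCs 1626 became 913 without the mean-variance trend, 324, 330, 297 and 341 with the same 4 removals, and 141 to 1614 without 1 library, with 141 without mKO B, 387 without WT B and 819 without WT A. Library totals moved the split from 2622 higher and 3405 lower to 3857 and 2238 in RGCs, and from 641 and 985 to 1351 and 454 in non-RGCs. Depth limits single values: Adnp rested on 60 to 226 reads in the mKO non-RGC libraries.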
